A study of Mus musculus with 96 samples.

Results

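Microglia from the hemisphere of old mice were compared 48 h after abdominal surgery with microglia from control mice of the same age and time. The samples were chosen by their titles, which place 17 of the series' 96 libraries in this comparison, and each column was matched by the library name in its label. The surgery group held 9 wild-type mice and the control group 8 wild-type mice, all aged 20 to 22 months. The labels name the controls only as such and do not say what they underwent.

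The series also covers young mice of 3 to 5 months, a time of 6 h and the hippocampus. Cells positive for Fcrls and CD11b and negative for Ly6C were sorted by flow cytometry, and 1000 of them were lysed for each library. RNA was read with Smart-seq2, which copies whole transcripts from few cells and in its first form keeps no strand. The number in each library name is called its sort number here, though the labels do not say what it counts. Hemisphere and hippocampus libraries with the same sort number are taken here as coming from 1 mouse.

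Microglia are the resident macrophages of the brain. They survey the tissue through the purinergic receptor P2ry12 and the fractalkine receptor Cx3cr1, clear debris through the lysosome, and respond to cytokines, to stress hormones from the adrenal gland and to cell damage. Surgery outside the brain is studied because inflammation and glucocorticoids can reach these cells through the circulation, and old animals are of interest because their microglia are considered primed. Immediate early genes such as Fos and Egr1 are transcribed within minutes of a stimulus, without new protein, and in microglia they are also known to respond while tissue is taken apart for sorting.

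No gene passed the threshold in old hemisphere at 48 h. Of 12250 genes tested, edgeR's quasi-likelihood test called 0 after Benjamini-Hochberg (BH) adjustment at 0.05, a background of 0.0%. At an unadjusted p below 0.05 there were 718 genes (5.86%), of which 368 were higher (3.0%) and 350 lower (2.86%) after surgery. The median log2 fold change over all genes tested was -0.01, with 48.2% above 0, and the median standard error (SE) was 0.26. DESeq2 called 1 gene, the same one that came closest in edgeR, and limma voom called 0. Levels are counts per 1000000 of the counts in the genes tested, after TMM scaling (CPM). They are given as mean ± SD with n = 9 surgery and 8 control libraries. Fold changes are log2 values of surgery over control ± SE.

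The groups overlapped in depth. Total estimated counts ran from 2261927 to 3385505 after surgery and from 2117400 to 3272043 in controls (exact two-sided permutation p = 0.778). A set of 15 repeat-like or ribosomal gene models held 72.8% to 80.3% of each surgery library and 65.0% to 79.1% of each control library. Control replicates 4 and 6 had the smallest shares in these models, 65.0% and 66.3%, and the lowest correlations with their own group. Old libraries carried sort numbers 75 to 90 (3 surgery, 4 control) or 93 and above (6 surgery, 4 control), and a value within a range is given for some results below. In a bulk library, fewer cells of a type and less RNA per cell cannot be told apart.

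The sorted cells carried the microglial genes in both groups. P2ry12 averaged 492 ± 68.3 CPM after surgery and 452 ± 113 CPM in controls, with a fold change of 0.12 ± 0.15 (95% interval -0.18 to 0.43). Tmem119, a microglial surface protein, averaged 599 ± 57.3 CPM after surgery and 600 ± 130 CPM in controls, and Cx3cr1 differed by 0.04 ± 0.13. All 30 homeostatic genes on the list were tested, with 18 above 0 and a median of 0.04. Without control replicates 4 and 6 that median was -0.03 and P2ry12 stood at -0.04. Summed markers of other cell types overlapped between groups, and some sums were as high as single microglial genes. The 10 oligodendrocyte markers summed to 245 to 449 CPM after surgery and 279 to 398 CPM in controls, and the 10 border-associated macrophage markers to 96.2 to 175 and 112 to 199 CPM. Choroid plexus markers were uneven in both groups, at 5.56 to 604 CPM after surgery and 16.4 to 564 CPM in controls. Olig1, Olig2, Hbb-bs and Hbb-bt were listed at 0 in every old library, as was 1 gene model of Atp5o, a subunit of ATP synthase. The respiratory chain list holds 32 genes and 32 tested gene models, so another model of Atp5o may have been tested. Whether a listed 0 means that a gene was silent was not tested.

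Cep295 (chr9:15316915-15357788, mm10) came closest to the threshold. It encodes a centrosomal protein needed to convert centrioles into centrosomes. Its levels after surgery were 10.4, 6.42, 8.54, 5.93, 9.57, 5.34, 9.42, 7.60 and 9.04 CPM in replicates 1 to 9, against 33.3, 13.7, 10.4, 16.95, 12.4, 24.7, 18.5 and 26.5 CPM in control replicates 1 to 8. All 9 surgery libraries lay below all 8 controls, but only by a margin of rounding, since the highest surgery library and the lowest control both stood at 10.4 CPM. With scaling over 8 groups these 2 libraries overlapped, at 10.9023 CPM after surgery and 10.8831 CPM in the control. Its fold change was -1.29 ± 0.23 (95% interval -1.75 to -0.82) and its edgeR BH 0.0559, on a mean of 20.8 counts after surgery and 56.6 in controls. DESeq2 gave an adjusted p of 0.0014, voom 0.181, and edgeR 0.0132 to 0.231 when each old library was left out in turn. Over 32 settings it was called in 8. Within the sort number ranges it stood at -1.24 and -1.42.

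Outside old hemisphere at 48 h, Cep295 gave other values. In young hemisphere at 48 h it was 6.81 to 11.3 CPM after surgery and 9.89 to 22.5 CPM in controls, a fold change of -0.66. In the hippocampus of the same old mice it was 7.89 to 15.9 CPM after surgery and 7.15 to 16.5 CPM in controls, a fold change of 0.07. At 6 h in old hemisphere it was -0.26. The difference between hemisphere and hippocampus, tested within mice, was -1.31 ± 0.32 but had an edgeR BH of 1.00, and the difference between old and young was -0.63 ± 0.40 (BH 0.961).

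Another 3 genes separated the 2 groups without overlap, which makes 2 above and 2 below among all genes tested (0.0163% each way). Rbbp5, a subunit of the complexes that methylate histone H3 at lysine 4, ran from 6.47 to 11.1 CPM after surgery and from 1.79 to 6.44 CPM in controls (0.93 ± 0.24, edgeR BH 0.699). The predicted gene Gm10277 ran from 1.74 to 6.78 CPM after surgery and from 0 to 1.49 CPM in controls, and 4833445I07Rik from 0.348 to 2.03 and from 2.24 to 4.77 CPM. These 3 were picked because their groups do not overlap, and none was called.

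**Figure D1:**
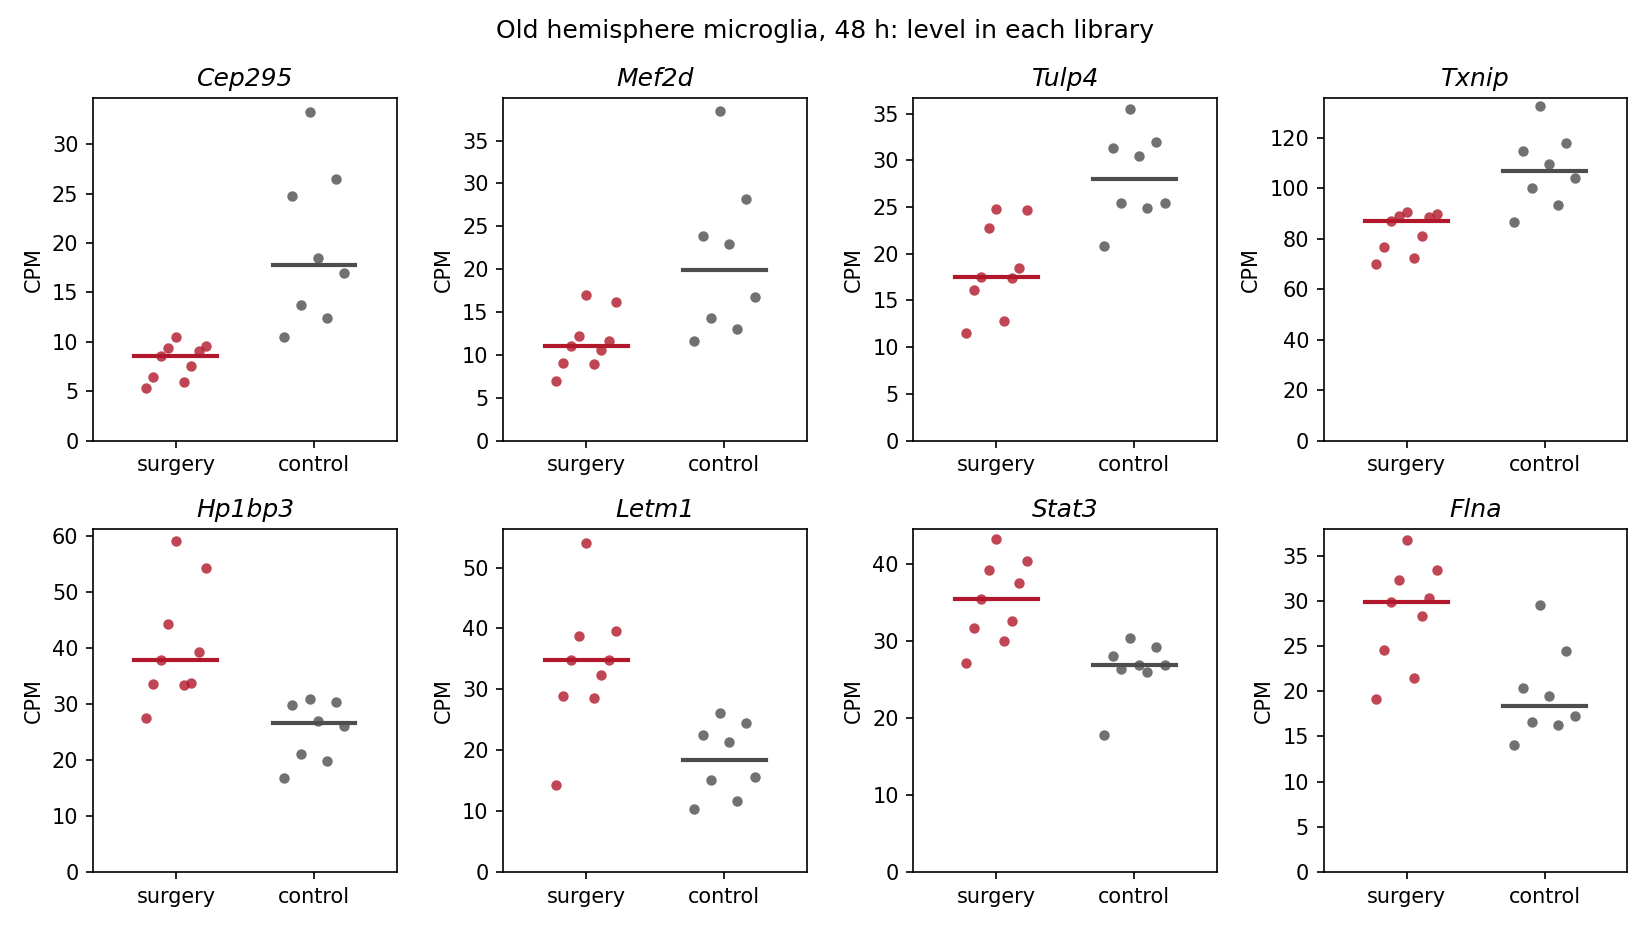
Level in CPM (y axes, starting at 0) of 8 genes in each library of old hemisphere at 48 h, surgery (red, left) and control (grey, right); points are libraries and bars are group medians. For Cep295 the groups meet at 10.4 CPM, while the other 7 genes overlap in a few libraries, and none of the 8 passed the threshold.

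Among genes with a mean log2 CPM of 4 or more, the 8 smallest p-values on the higher side had a BH of 0.76 to 0.767. Hp1bp3, a chromatin protein related to linker histones, ran from 27.5 over a median of 37.7 to 59.04 CPM after surgery and from 16.7 over 26.5 to 30.8 CPM in controls, a fold change of 0.69 ± 0.21. All 9 surgery libraries lay above the control median. The share of all genes with all 9 on 1 side of that median is not given, here or for the genes below. Letm1, a protein of the inner mitochondrial membrane, averaged 34.0 ± 10.7 CPM after surgery and 18.4 ± 6.01 CPM in controls (0.89 ± 0.28). Flna and Lims1, which link the actin cytoskeleton to integrins, stood at 0.52 ± 0.18 and 0.44 ± 0.14. The tetraspanin Tspan7 stood at 0.45 ± 0.15. Zfp592 (0.97) and Wdfy3 (0.76), an adaptor of selective autophagy, were uneven, and within sort numbers 75 to 90 both were near 0 (-0.04 and -0.02).

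Stat3, the transcription factor downstream of interleukin-6 receptors, ran from 27.1 over a median of 35.4 to 43.2 CPM after surgery and from 17.7 over 26.8 to 30.3 CPM in controls. Its fold change was 0.42 ± 0.14 (edgeR BH 0.767), with all 9 surgery libraries above the control median. In young mice it was -0.62 at 48 h, and the difference of old minus young, 1.04 ± 0.25, had an edgeR BH of 0.571. Socs3, the feedback inhibitor that STAT3 induces, averaged 95.3 ± 28.3 CPM after surgery and 104 ± 36.1 CPM in controls (-0.13 ± 0.20), and Il6st, the gp130 chain of the receptor, stood at -0.07 ± 0.18. Of the 16 tested genes on the STAT3 and acute phase list 6 lay above 0, with a median of -0.09. That direction turned between the sort number ranges, with a median of 0.23 (10 of 16 above 0) within 75 to 90 and -0.15 (3 of 15) within 93 and above.

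On the lower side, the 8 genes with the smallest p-values had a BH of 0.699 to 0.734. Mef2d, a MADS-box transcription factor, ran from 6.96 over a median of 11.1 to 16.97 CPM after surgery and from 11.6 over 19.9 to 38.4 CPM in controls. Its fold change was -0.88 ± 0.22 (edgeR BH 0.699), and each of the 9 surgery values was under the control median. Tulp4 averaged 18.5 ± 4.82 CPM after surgery and 28.2 ± 4.83 CPM in controls (-0.61 ± 0.17), and Gtf3c1, a subunit of the RNA polymerase III factor TFIIIC, stood at -0.53 ± 0.16. Sp1, a factor of GC-rich promoters, stood at -1.49 ± 0.42, with controls spread from 5.58 to 65.6 CPM. Dnmt3a, a DNA methyltransferase (-0.56), the peptidase Nrd1 (-0.73), Ubap2l (-0.64) and Glg1 (-0.92) completed the 8. Ubap2l stood at -0.95 and -0.24 in the sort number ranges and at -0.32 without control replicates 4 and 6.

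Txnip, the thioredoxin-interacting protein, responds to glucose and to glucocorticoids. Its levels after surgery were 72.4, 87.2, 89.01, 88.7, 70.0, 76.9, 90.5, 89.7 and 80.9957 CPM, against 115, 110, 100, 118, 104, 133, 93.5 and 86.5 CPM in controls. Only control replicate 8 lay within the surgery range. The fold change was -0.38 ± 0.11 (95% interval -0.61 to -0.14, edgeR BH 0.747). It was -0.30 in the hippocampus, -0.09 in young hemisphere and 0.42 in old hemisphere at 6 h.

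Immediate early genes had the lowest median of the 25 gene lists with all libraries, but not without surgery replicates 2 and 3, where it was -0.13 and the interferon (-0.28), clock (-0.20) and glycolysis (-0.15) lists were lower. Of 38 members 33 were tested, 30 with a fold change below 0, where 51.8% of all genes lay below 0, and the median was -0.36. None was called, and 3 had an unadjusted p below 0.05. These were Fosb, Ier3 and Klf4. Egr1, Fos and Atf3 encode transcription factors, and Dusp1 encodes a phosphatase that switches off MAP kinases. The upstream stretches of 3 members are shown because they hold the motif described next. They are the 250 bases before the RefSeq start site in GRCm38.p6, printed 5′ to 3′ on the gene's strand. The core of the cAMP response element, TGACGT or its reverse complement, is in capitals, and copies can overlap.
Fos (chr12:85473640-85473889, plus strand): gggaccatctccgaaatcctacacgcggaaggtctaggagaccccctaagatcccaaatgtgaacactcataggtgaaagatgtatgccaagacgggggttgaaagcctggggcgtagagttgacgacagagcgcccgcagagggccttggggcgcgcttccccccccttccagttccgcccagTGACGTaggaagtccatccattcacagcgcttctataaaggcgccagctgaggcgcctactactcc
Atf3 (chr1:191183334-191183583, minus strand): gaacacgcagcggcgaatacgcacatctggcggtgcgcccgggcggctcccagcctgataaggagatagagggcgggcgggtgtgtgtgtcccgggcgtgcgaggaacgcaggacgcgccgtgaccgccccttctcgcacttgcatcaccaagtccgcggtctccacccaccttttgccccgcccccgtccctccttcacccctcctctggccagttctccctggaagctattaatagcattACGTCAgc
Dusp1 (chr17:26508473-26508722, minus strand): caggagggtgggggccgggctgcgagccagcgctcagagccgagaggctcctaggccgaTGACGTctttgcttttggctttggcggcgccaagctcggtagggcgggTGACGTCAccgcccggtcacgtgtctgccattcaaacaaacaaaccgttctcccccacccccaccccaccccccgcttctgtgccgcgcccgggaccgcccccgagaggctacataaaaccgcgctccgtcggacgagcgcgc

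The core was found in 8 of 30 immediate early windows of 300 bases that were searched (250 before and 50 after the start site), or 26.7%, and in 7.64% of all 27025 windows. The AP-1 motif TGANTCA was in 1 of the 30 and in 7.93% of all, the glucocorticoid response element core in 1 and in 0.463%, and the CArG box in 1 and in 1.57%. Both strands were searched. Fosb, Ier3 and Klf4 did not hold the core, while Nr4a3 and Btg1, which lay above 0, did. The first of these motifs was chosen after the windows had been read, and a match is a description of letters, not of a bound site.

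In the immediate early genes 2 surgery libraries stood far below the rest. Egr1 stood at 878, 166, 169, 768, 575, 705, 1099, 1111 and 697 CPM in surgery replicates 1 to 9, against 747, 786, 714, 781, 919, 948, 1121 and 1153 CPM in the controls. Surgery replicates 2 and 3 lay far below every other library. The other 7 overlapped the controls in range, but those at 575, 705 and 697 CPM also lay under the lowest control (714 CPM). Fos stood at 663, 210, 208, 596, 382, 553, 500, 847 and 560 CPM after surgery, against 657, 667, 620, 516, 721, 559, 565 and 938 CPM in controls. Atf3 stood at 11.9 and 14.2 CPM in surgery replicates 2 and 3, at 63.5 to 251 CPM in the other 7, and at 97.9 to 304 CPM in controls. The low libraries were again replicates 2 and 3, followed by replicate 5. For Fos, surgery replicates 5 and 7 also lay under the lowest control (516 CPM).

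The same order held over the list. As a mean log2 difference from the control mean over the tested members, surgery replicates 2 and 3 stood at -1.39 and -1.27 and the other 7 at -0.57 to 0.32, against -0.24 to 0.42 for controls. In the hippocampus libraries of the same 2 mice the value was -0.88 and -1.28. The other 7 surgery hippocampi lay between -0.78 and 0.49, and the control hippocampi between -0.29 and 0.47. Without surgery replicates 2 and 3 the hemisphere median was -0.13, with 27 of 33 members below 0. Within sort numbers 75 to 90, which hold neither library, it was -0.19 (25 of 31 below 0), and within 93 and above it was -0.44. In the other comparisons the list had a median of 0.05 in young hemisphere at 48 h, -0.26 in old hippocampus at 48 h and 0.09 in old hemisphere at 6 h.

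**Figure D2:**
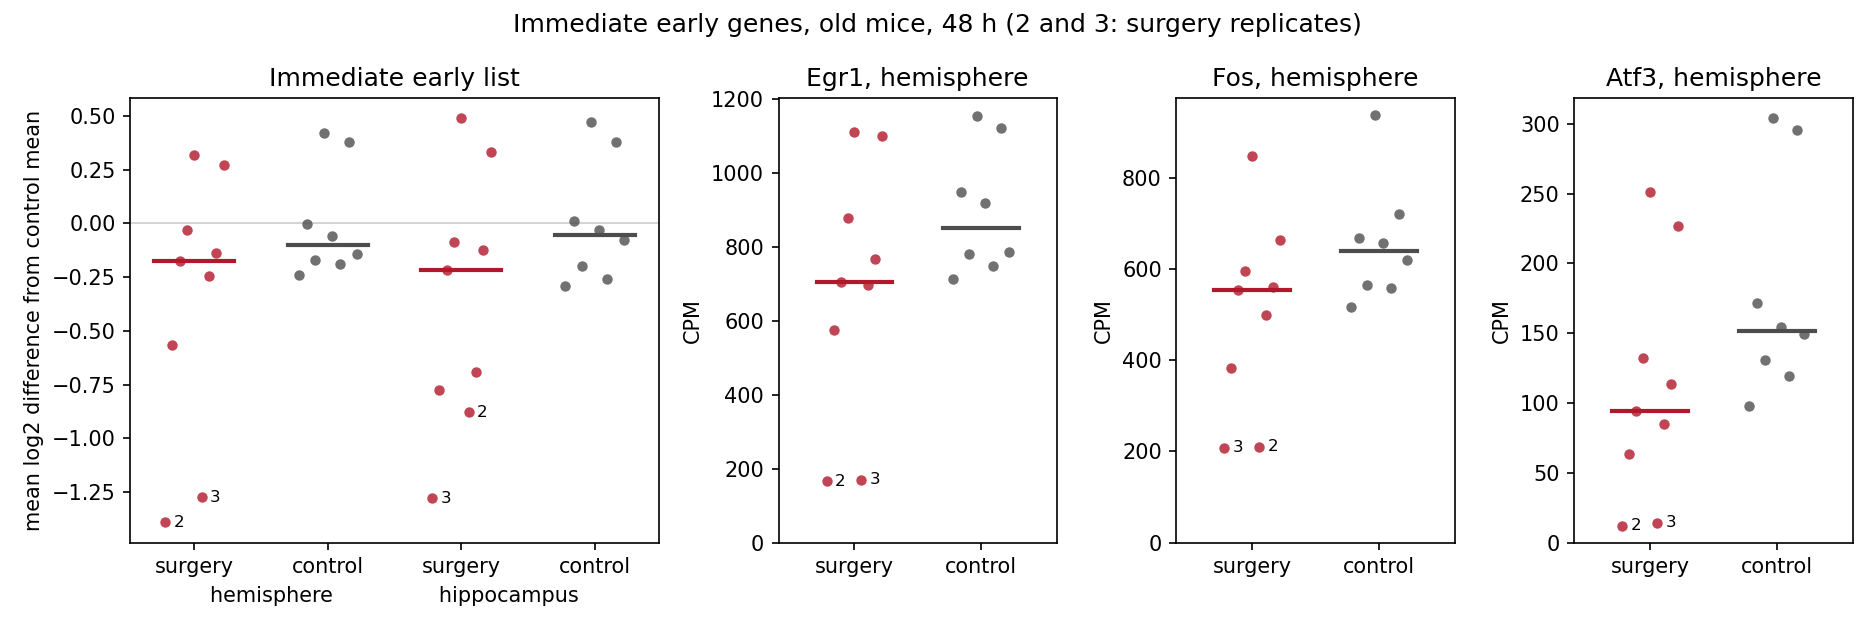
Left panel, mean log2 difference from the control mean of the region over the immediate early list (y axis) in each library of old mice at 48 h, hemisphere then hippocampus; other panels, level in CPM of Egr1, Fos and Atf3 in the hemisphere. Red points are surgery and grey points control libraries, bars are medians, and the labelled points are surgery replicates 2 and 3, which are lowest in the hemisphere at -1.39 and -1.27.

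Fosb, an AP-1 subunit, had the smallest p of the list. It stood at 65.8, 34.9, 39.4, 94.1, 47.4, 104, 70.9, 126 and 75.8 CPM after surgery, against 130, 115, 86.3, 175, 108.963, 104, 102.3 and 113 CPM in controls. Its fold change was -0.68 ± 0.21 (95% interval -1.10 to -0.25, edgeR BH 0.76), and 1 of 9 surgery libraries lay above the control median. It was -0.49 without surgery replicates 2 and 3. Ier3, which restrains cell death, stood at -0.56 ± 0.27 and -0.33 without them, and the transcription factor Klf4 at -0.43 ± 0.19 and -0.40 without them. Atf3 stood at -0.69 ± 0.40, Egr1 at -0.39 ± 0.26, Fos at -0.38 ± 0.21, Dusp1 at -0.33 ± 0.19, Jun at -0.28 ± 0.17, Zfp36, which destabilises cytokine mRNAs, at -0.26 ± 0.17, Btg2 at -0.19 ± 0.18 and Junb at -0.14 ± 0.16. Without surgery replicates 2 and 3 these 8 ran from -0.37 for Atf3 to 0.02 for Junb. The 3 members above 0 were Klf10 (1.02 ± 0.59), Nr4a3 (0.24) and Btg1 (0.01).

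Cytokine genes overlapped between the groups. Tnf averaged 28.0 ± 12.9 CPM after surgery and 32.2 ± 9.45 CPM in controls (-0.20 ± 0.26), with its lowest value, 7.80 CPM, among the surgery libraries. It was 0.05 without surgery replicates 2 and 3. Il1a, which encodes interleukin-1 alpha, averaged 27.2 ± 6.92 CPM after surgery and 36.4 ± 11.2 CPM in controls (-0.42 ± 0.18, edgeR BH 0.833), and its hippocampal fold change was -0.47. Il1b was under the count filter, at 0.507 to 2.52 CPM after surgery and 0.663 to 2.95 CPM in controls. Of 13 tested cytokines and chemokines 3 lay above 0, with a median of -0.16, or 0.01 without surgery replicates 2 and 3. It was 0.03 within sort numbers 75 to 90 and -0.36 within 93 and above. NF-kB genes and their inhibitors had a median of -0.02 (9 of 20 above 0) and Toll-like receptors one of 0.11 (12 of 19). The Toll-like receptor median was 0.06 without surgery replicates 2 and 3 and -0.05 (9 of 19 above 0) without control replicates 4 and 6. Interferon-stimulated genes had a median of -0.20 (7 of 25 above 0), with Gbp3, a guanylate-binding protein, at -0.70 and Rtp4 at -0.65. That list was -0.08 and -0.14 in the sort number ranges, and -0.28 with 22 of 25 below 0 without surgery replicates 2 and 3. In old hippocampus at 48 h it lay the other way, at 0.19 with 18 of 22 above 0. It was -0.17 in young hemisphere at 48 h and -0.10 in old hemisphere at 6 h.

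Lysosomal genes leaned the other way. Of 38 tested members 33 lay above 0, against 48.2% of all genes, but the median was 0.16 and none was called. Npc2, which hands cholesterol out of the lysosome, averaged 124 ± 23.5 CPM after surgery and 95.5 ± 24.3 CPM in controls (0.38 ± 0.16, edgeR BH 0.836). Scarb2, the receptor that carries glucocerebrosidase to the lysosome, stood at 0.32 ± 0.15 and Atp6v1a, a subunit of the proton pump, at 0.59 ± 0.23. The cathepsin genes Ctsb (0.34), Ctsl (0.32), Ctss (0.27) and Ctsd (0.23) lay in the same direction, and Axl, a receptor for dying cells, stood at -0.36. Without surgery replicates 2 and 3 the lysosome median was 0.05, and without control replicates 4 and 6 it was 0.08. Over the list the 2 surgery libraries were the highest, at 0.49 and 0.33 above the control mean, and the 2 control libraries the lowest, at -0.43 and -0.27. In young hemisphere the list had a median of -0.14, in old hippocampus at 48 h of 0.12 and in old hemisphere at 6 h of 0.00.

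Lists tied to antigen handling and lipid traffic showed like values. Of 18 tested complement and Fc receptor genes 15 lay above 0 (median 0.15), with C4b, the complement component, at 0.57 and C1qa at 0.19. MHC class II had a median of 0.25 (8 of 12 above 0), with H2-Ab1 at 0.81 and Cd74, its invariant chain, at 0.62. Lipid efflux and storage had one of 0.15, with the sterol exporter Abcg1 at 0.44 ± 0.19 (36.4 ± 8.23 CPM after surgery and 26.8 ± 7.49 CPM in controls) and all 9 surgery libraries above the control median. The 3 medians were 0.06, 0.12 and 0.04 without surgery replicates 2 and 3, and 0.07, 0.09 and 0.04 without control replicates 4 and 6. Of 6 tested B cell markers 5 also lay above 0, with a median of 0.27. That median was 0.09 without surgery replicates 2 and 3, -0.07 within sort numbers 75 to 90 and 0.28 within 93 and above. As a mean log2 difference over these markers, 4 surgery libraries lay above the control median and 5 below. Surgery replicates 1 and 2 were highest on both lists, at 0.91 and 1.31 for B cells and 0.53 and 0.70 for MHC class II, and the part of B cells in the result was not tested. Apoe, the lipid carrier, stood at 0.09 ± 0.31 and Clec7a, a disease-associated receptor, at -0.01 ± 0.42. The disease-associated list had a median of 0.07 (17 of 27 above 0).

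**Figure D3:**
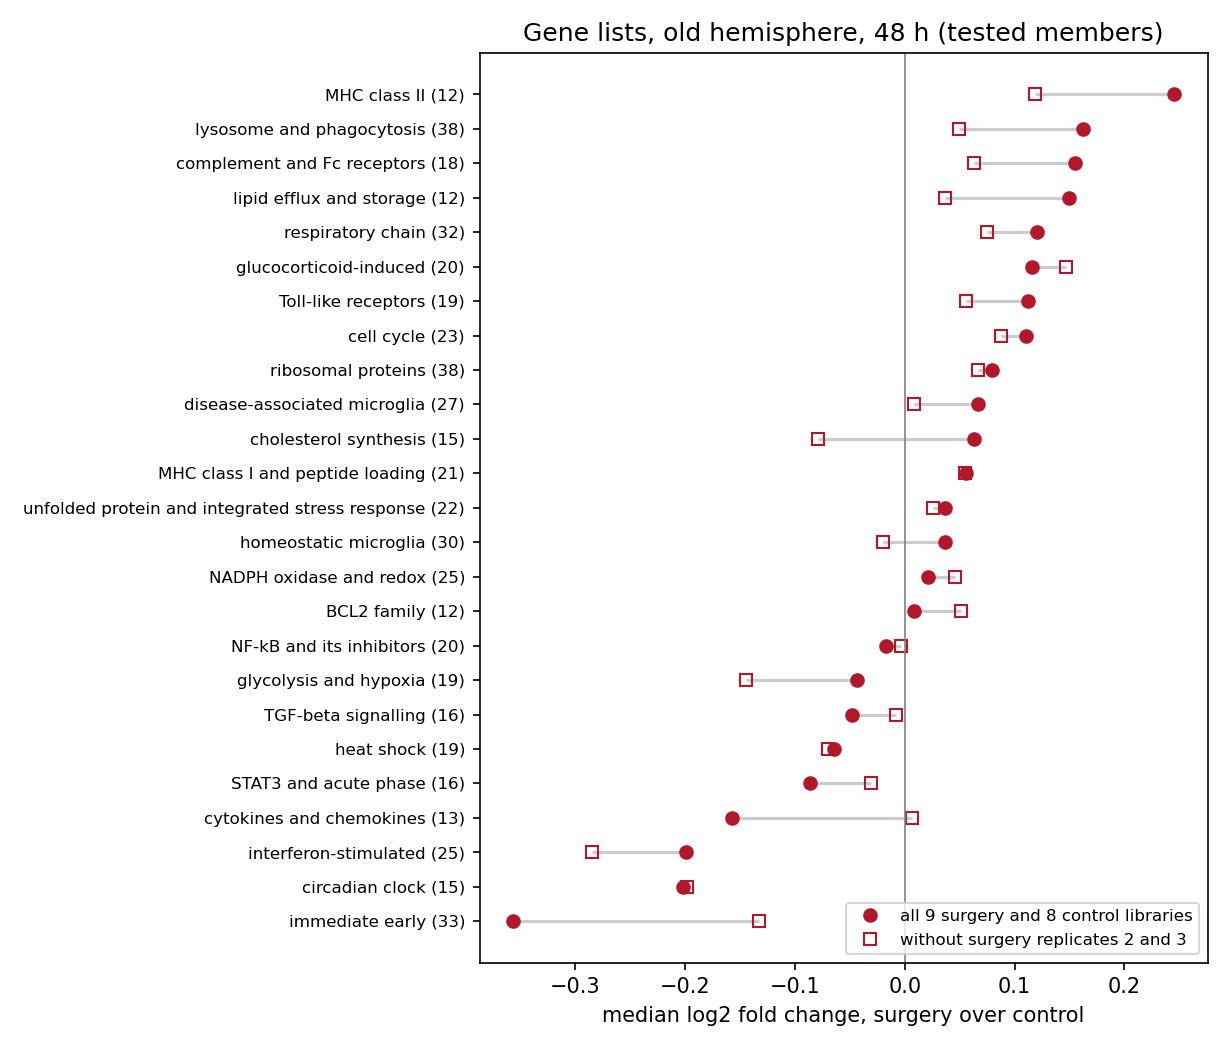
Median log2 fold change of surgery over control (x axis) for each of the 25 gene lists in old hemisphere at 48 h, with the number of tested members in brackets. Filled circles use all libraries and open squares leave out surgery replicates 2 and 3; immediate early genes are lowest at -0.36 and stand at -0.13 in the second setting.

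Metabolic, clock and stress genes gave scattered values. Slc2a1, the glucose transporter GLUT1, averaged 6.60 ± 2.52 CPM after surgery and 13.04 ± 6.26 CPM in controls (-1.01 ± 0.39, edgeR BH 0.813), with each of the 9 surgery values under the control median. Slc2a3, the transporter GLUT3, stood at -1.38 ± 0.51 over all libraries, but at 0.38 within sort numbers 75 to 90 and -2.38 within 93 and above. Atp5b, a subunit of ATP synthase, stood at -0.37 ± 0.14. In the respiratory chain list 22 of 32 genes lay above 0 (median 0.12), against 48.2% of all genes. Within sort numbers 75 to 90 it was 26 of 32 (median 0.20), and within 93 and above 18 of 32 (median 0.03). The heat shock gene Hspa1a averaged 8.84 ± 3.61 CPM after surgery and 15.5 ± 6.43 CPM in controls (-0.79 ± 0.25, edgeR BH 0.76), in a list with a median of -0.06, or 0.14 within sort numbers 75 to 90 and -0.25 within 93 and above. Of 15 clock genes 5 lay above 0 (median -0.20), and the median was 0.016 without control replicate 8 and -0.029 within sort numbers 75 to 90. The list had the repressors Nr1d1 and Per2 at -0.70 ± 0.30 and -1.51 ± 0.73 and the activator Tef at -0.49 ± 0.22. Per2 rested on low levels, with 1 control library at 16.1 CPM and the others at most 4.47 CPM. Smad7, an inhibitor of TGF-beta signalling, averaged 10.6 ± 2.93 CPM after surgery and 15.7 ± 3.47 CPM in controls (-0.58 ± 0.19, edgeR BH 0.76), and stood at -0.57 in the hippocampus. Of 38 ribosomal protein genes 30 lay above 0 with a median of 0.08, against 48.2% of all genes above 0. Within sort numbers 93 and above 18 of 38 lay above 0, with a median of -0.008.

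The difference between 48 h and 6 h was tested because the 6 h mice are separate animals with their own controls. Here edgeR called 24 of 14144 genes (0.17%), 9 with a higher (0.0636%) and 15 with a lower (0.106%) surgery effect at 48 h, and 1045 had an unadjusted p below 0.05 (7.39%). Fkbp5, Tsc22d3 and Ddit4, which glucocorticoids are known to induce, were among the lower ones. Levels here are scaled over all 8 hemisphere groups. Fkbp5, a co-chaperone of the glucocorticoid receptor, ran from 13.2 over a median of 15.7 to 42.9 CPM after surgery and from 9.37 over 15.6 to 21.5 CPM in controls at 48 h. At 6 h it ran from 32.9 over 67.3 to 89.02 CPM after surgery and from 8.49 over 12.2 to 16.1 CPM in controls. The groups overlapped at 48 h and did not overlap at 6 h, and the difference of the fold changes was -2.02 ± 0.43 (95% interval -2.88 to -1.16, edgeR BH 0.0316). The fold change at 48 h itself was 0.38 ± 0.34 (95% interval -0.31 to 1.07), and surgery replicate 1 alone stood at 41.1 CPM where the next stood at 24.2 CPM.

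Tsc22d3, the glucocorticoid-induced leucine zipper, had a median of 39.6 CPM after surgery and 44.8 CPM in controls at 48 h, against 93.4 and 23.4 CPM at 6 h. The difference was -2.04 ± 0.36 (edgeR BH 0.00972), and the fold change at 48 h was -0.12 ± 0.24 (95% interval -0.60 to 0.36). Rcan1, an inhibitor of calcineurin, had a difference of -1.93 ± 0.37 (BH 0.0173) and a fold change at 48 h of 0.13 ± 0.26. Ddit4, an inhibitor of mTORC1, had a difference of -4.69 ± 1.06 (BH 0.039) and was at 0 to 3.48 CPM after surgery and 0 to 1.49 CPM in controls at 48 h, under the count filter. Txnip, described above, had a difference of -0.79 ± 0.17 (BH 0.0316), made of -0.38 at 48 h and 0.42 at 6 h. Tagap, a GTPase-activating protein of leukocytes, had -1.46 and Il15ra, the interleukin-15 receptor alpha chain, -1.68.

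Genes whose surgery effect was higher at 48 h included Relb, an NF-kB subunit. Relb ran from 5.93 over a median of 10.6 to 20.97 CPM after surgery and from 5.40 over 11.1 to 17.2 CPM in controls at 48 h, while its 6 h medians were 3.70 CPM after surgery and 13.2 CPM in controls. The difference was 1.63 ± 0.36 (edgeR BH 0.0316) and the fold change at 48 h 0.06 ± 0.22. Asb2, an adaptor of a ubiquitin ligase, had a difference of 1.16 ± 0.25 and Cyb561a3, a lysosomal iron reductase, one of 1.35 ± 0.31, with fold changes at 48 h of 0.16 and 0.23. The next genes did not pass. Il6st had a difference of 1.05 ± 0.29 (BH 0.151) and Sult1a1, a sulfotransferase, one of -1.15 ± 0.28 (BH 0.0628). For Sult1a1 all 9 surgery libraries at 48 h lay above the control median (17.2 ± 3.34 CPM after surgery and 13.9 ± 4.83 CPM in controls, 0.32 ± 0.20). Pik3ip1, an inhibitor of PI3-kinase, stood at 1.52 ± 0.43 at 48 h (edgeR BH 0.72), with 4.92 ± 3.76 CPM after surgery and 1.72 ± 1.02 CPM in controls, and at 0.99 without surgery replicates 2 and 3. Over the glucocorticoid-induced list the median was 0.12 at 48 h (12 of 20 above 0) and 1.08 at 6 h (20 of 23 above 0). Its members were chosen with earlier results of these data known, so the 6 h median is no independent support. The value at 48 h was -0.017 without surgery replicate 8, 0.013 without control replicates 4 and 6, and 0.29 within sort numbers 75 to 90.

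**Figure D4:**
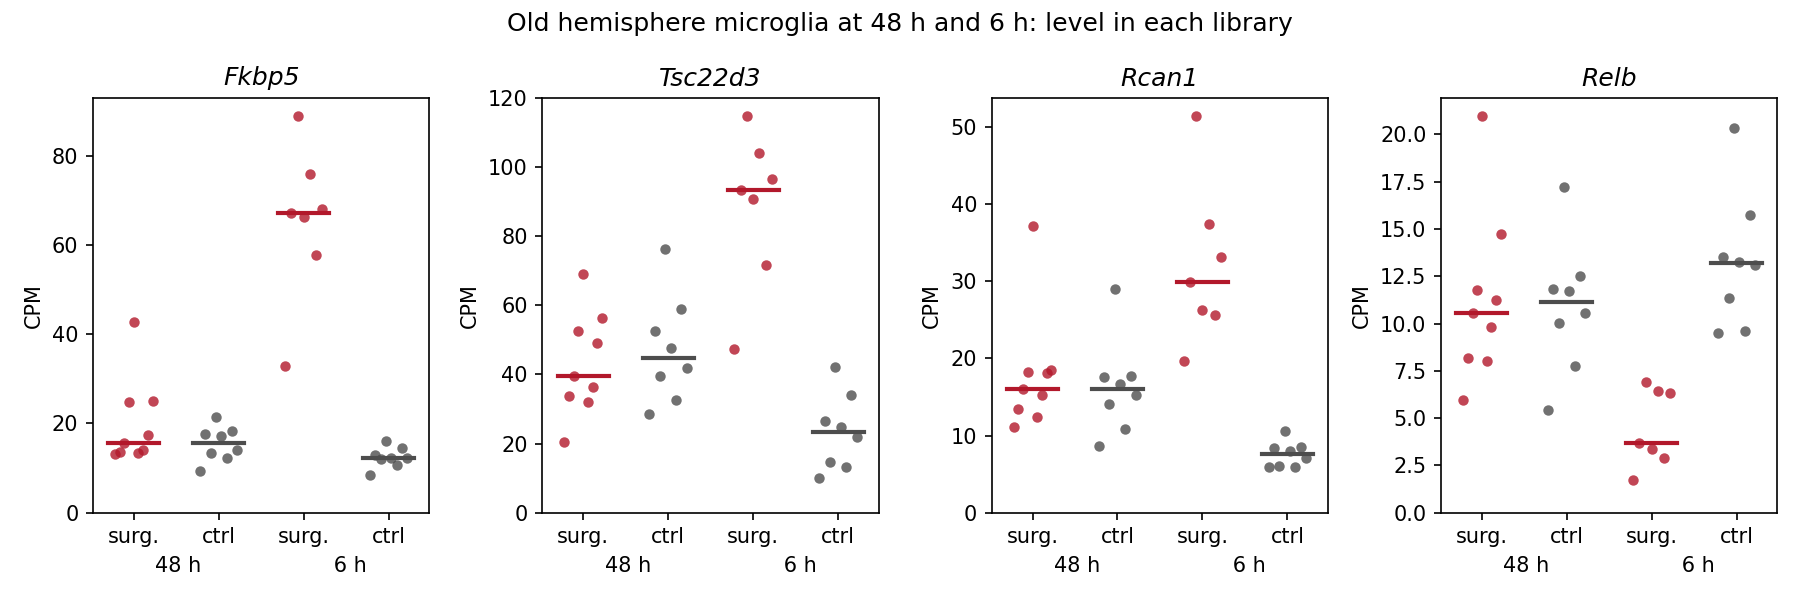
Level in CPM (y axes, starting at 0) of Fkbp5, Tsc22d3, Rcan1 and Relb in each old hemisphere library at 48 h and 6 h, surgery in red left of control in grey; points are libraries and bars are medians. The groups overlap at 48 h, with Fkbp5 medians of 15.7 CPM after surgery and 15.6 CPM in controls, and stand apart at 6 h, with medians of 67.3 and 12.2 CPM.

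Old and young mice were compared by subtracting the young effect from the old one at 48 h. Of 12250 genes edgeR called 0 (0.0%), with 589 at an unadjusted p below 0.05 (4.81%), voom 0, and DESeq2 1. That gene was Lepr, the leptin receptor, at 0.348 to 2.02 CPM after surgery and 0 to 17.9 CPM in controls of old mice, and 1.40 to 10.8 CPM after surgery and 0.374 to 1.29 CPM in controls of young mice (DESeq2 adjusted p 0.0311, edgeR BH 0.526). For Slc2a3 the difference was -3.72 ± 0.94 (edgeR BH 0.575) and for Fosb -0.94 ± 0.37 (BH 0.961). Within old mice the effect in the hemisphere minus that in the hippocampus gave 0 of 11007 genes (0.0%), with 344 at an unadjusted p below 0.05 (3.13%), and DESeq2 and voom also called 0. The young groups hold 4 mice each, so differences with young mice have wide errors.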

How the data were processed

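Per the file headers, the deposited tables hold whole-number estimated counts for Ensembl gene models, with a column for each library. The submitters' processing notes name mm10, R 4.2.1 and DESeq2 1.36.0, while neither the aligner nor the use of strand is given in the sources used here. Of 54532 gene models 54495 matched GENCODE M21 of the same build, and reads of overlapping or antisense genes cannot be separated.

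Tests used edgeR 4.0.16 in R 4.3.3: TMM scaling, robust dispersions, filterByExpr with its minimum count set to 10, and the quasi-likelihood F-test, with Benjamini-Hochberg adjustment over all genes at 0.05. The 4 hemisphere groups at 48 h were fitted together, the 8 hemisphere groups for the difference from 6 h, and both regions of old mice with the mouse as a block. DESeq2 1.42.0 and limma 3.58.1 were alternatives.

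Named genes are the 8 with the smallest p in each direction with a mean log2 CPM of 4 or more, list members with an unadjusted p below 0.05, genes called in any setting, and a fixed set. Other genes named were chosen after their values were seen. Promoters on chromosome 18 were not searched. Members and lists were chosen with earlier results of these data known. Replicates are taken as separate mice from their library names. Replicate numbers did not pair the groups (8 same-numbered pairs, correlation of deviations 0.0178 to 0.203).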

Additional observations from a re-analysis of the deposited data

Results flagged for a closer look

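In 14 of 140 groups of named genes checked, the highest or lowest library stood far from the rest, where chance flags about 1 in 20 groups. Among surgery libraries these were replicate 1 for Nrd1 (26.1 CPM), Fkbp5 (41.1 CPM) and Ddit4 (3.48 CPM), replicate 2 for Scarb2 (55.96 CPM), replicate 3 for Pik3ip1 (13.4 CPM), replicate 5 for Mcm4 (13.6 CPM), and replicate 8 for Ubap2l (50.7 CPM), Il1a (43.1 CPM) and Rcan1 (35.0 CPM). Among controls they were replicate 1 for A830082N09Rik (495 CPM), replicate 2 for Tap2 (30.9 CPM), replicate 4 for Stat3 (17.7 CPM), replicate 5 for Per2 (16.1 CPM) and replicate 7 for Rcan1 (27.4 CPM). In 13 of the 14 the library was high, Stat3 being the exception. The named genes were partly picked by their values, and the number flagged was not tested against the rate of 1 in 20. Without control replicate 1 the fold change of A830082N09Rik was -0.05, against -4.01 with it.

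The surgery effect differed between 48 h and 6 h in old hemisphere for 24 genes by the test of the difference itself (edgeR BH below 0.05). As 48 h minus 6 h, the log2 differences were -2.02 for Fkbp5, -2.04 for Tsc22d3, -4.69 for Ddit4, -1.93 for Rcan1, -4.80 for Hif3a, -2.14 for AC154912.3, a model inside Fkbp5, -0.79 for Txnip, -1.46 for Tagap, -1.68 for Il15ra, -1.95 for Abl2, -1.23 for Rbm26, -1.35 for Zfp513, -2.73 for Zmym4, -1.76 for Gm45221 and -6.92 for Nacad. They were 1.63 for Relb, 1.16 for Asb2, 1.35 for Cyb561a3, 1.55 for Ighm, 2.41 for Il4i1, 1.67 for Wscd1, 3.18 for Srgap3, 3.35 for Phldb1 and 4.84 for Gm3912. Nacad, Hif3a and Ddit4 had libraries at 0 in some of the 4 groups.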

How the results depend on the processing

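The comparison at 48 h called 0 genes in the main setting and 0 to 2 in 32 settings. It called 1 with DESeq2, with no filter on low counts, at a minimum count of 30 and with the sort number range as a term, 0 to 1 when each old library was left out (1 without old control replicate 2, 3 or 5), and 2 with all 8 hemisphere groups in 1 fit, Cep295 and A830082N09Rik. With the replicate number as a block it called 0, and the numbers share only a label. The setting with 8 groups and those without surgery replicates 2 and 3, without control replicates 4 and 6 and without the stepped 6 h libraries were added after seeing the data. The difference of old minus young called 1 in DESeq2 and 0 in each left-out fit, and hemisphere minus hippocampus called 46 with no filter. The difference of 48 h minus 6 h called 24 genes in the main setting, 55 in DESeq2 (23 shared), 14 in voom (12 shared), 5 with no filter (4 shared) and 23 without the 2 libraries whose low counts skip steps. Leaving out each old library moved the immediate early median between -0.42 and -0.25. The causes were not tested.

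Of 68 named genes refitted, 51 kept their sign throughout. Within sort numbers 75 to 90 the sign turned for Zfp592 (-0.035), Wdfy3 (-0.018), Slc2a3 (0.38), Tmem119 (0.021), Clec7a (0.11), Tnf (0.023), Socs3 (0.26), Cdkn1a (0.053), Tsc22d3 (0.17) and Nr4a1 (0.063), and within 93 and above for P2ry12 (-0.0085), Apoe (-0.17), Rcan1 (-0.081) and Relb (-0.52). Without surgery replicates 2 and 3 it turned for Cx3cr1 (-0.025), Apoe (-0.058), Tnf (0.047), Socs3 (0.044), Tsc22d3 (0.023), Junb (0.018) and Nr4a1 (0.010). Without control replicates 4 and 6 it turned for P2ry12 (-0.043), Cx3cr1 (-0.059), Apoe (-0.063), Rcan1 (-0.0024) and Relb (-0.12). With 1 old library left out, values ran from -0.032 to 0.22 for Apoe, -0.19 to 0.18 for Clec7a, -0.013 to 0.076 for Cx3cr1, -0.18 to 0.016 for Il6st, -0.34 to 0.19 for Nr4a1, -0.072 to 0.29 for Rcan1, -0.10 to 0.17 for Relb, -0.22 to 0.0025 for Socs3, -0.077 to 0.057 for Tmem119 and -0.23 to 0.00087 for Tsc22d3. A median SE of 0.26 limits what these libraries can show.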

Other observations

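Egr1 and Atf3, chosen after their values were seen, had higher medians at 48 h than at 6 h in both groups of old hemisphere, on levels scaled over all 8 hemisphere groups. Egr1 had medians of 731 CPM after surgery and 894 CPM in controls at 48 h, against 447 and 404 CPM at 6 h. Atf3 had medians of 97.3 and 158 CPM at 48 h, against 29.8 and 46.03 CPM at 6 h. The times come from separate mice with sort numbers 75 and above and 40 to 72. Time and sort number therefore cannot be told apart, and no test was made.

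Of the markers of other cells, 4 had an unadjusted p below 0.05, all higher after surgery, where 3.0% of all genes did. They were 1 of 2 tested neuronal, 1 of 3 astrocyte, 1 of 4 oligodendrocyte and 1 of 3 endothelial markers. No tested marker reached this p for border-associated macrophages (3 tested), monocytes (2), neutrophils (2) or T and NK cells (1). The same held for B cells (6), oligodendrocyte precursors (2) and choroid plexus (4). Camk2a, a neuronal kinase, averaged 5.39 ± 2.58 CPM after surgery and 3.01 ± 1.42 CPM in controls (0.84 ± 0.37). Mbp, the myelin basic protein, averaged 10.2 ± 2.97 CPM after surgery and 7.05 ± 2.81 CPM in controls (0.53 ± 0.24), with all 9 surgery libraries above the control median. Slc1a2, an astrocyte glutamate transporter, ran from 0 to 42.1 CPM after surgery and from 0 to 17.5 CPM in controls. Cdh5, an endothelial cadherin, was at 0 in 5 of 9 surgery libraries and in 7 of 8 control libraries.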
